A study of Homo sapiens with 4 samples.

Results

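KLK2, KLK3, TMPRSS2, FKBP5, HOXB13, FOXA1, FOLH1 and STEAP2 are 8 genes that mark the luminal cells of the prostate or answer to the androgen receptor, and they were chosen by their symbols. All 8 were listed among the 16376 genes of the deposited table. RNA was sequenced from LASCPC-01, a single human neuroendocrine prostate cancer (NEPC) line generated with NMYC and activated AKT1, which the labels give as WT. Cells were given PBS or fluoxetine, a serotonin reuptake inhibitor used as an antidepressant, with 2 libraries in each group, and all 4 libraries are labelled day 3. The study's text gives 5 µM and 48 h, and a medium with hydrocortisone and estradiol for the line. For the fluoxetine libraries the treatment field names fluoxetine, whereas their titles read PP. Values are FPKM, fragments divided by the length of the gene and by the depth of the library, so levels can be set side by side between genes. The whole fragments behind these values were recovered from them, and the libraries held between 32873603 and 34831389 fragments.

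In luminal prostate cells, androgen releases its receptor from HSP90 chaperones, and the receptor then binds DNA at sites that FOXA1 opens and that HOXB13 shares. Its targets include KLK3, which encodes prostate-specific antigen, KLK2, the protease TMPRSS2 and the co-chaperone FKBP5, which glucocorticoids induce as well. FOLH1 encodes prostate-specific membrane antigen and STEAP2 a metalloreductase of the cell surface. Neuroendocrine prostate cancers commonly lose this programme. The question for these libraries was which of its genes LASCPC-01 cells expressed, and whether any differed between fluoxetine and PBS.

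The 8 genes fell into 2 levels. TMPRSS2, FOXA1, FKBP5 and HOXB13 were expressed in every library, between 2.72 and 14.8 FPKM, whereas KLK2, KLK3, FOLH1 and STEAP2 never exceeded 0.256 FPKM. No difference between fluoxetine and PBS passed the test. Of the 6 that passed the filter of a mean of at least 0.1 FPKM, 0 had an adjusted p under 0.05 from limma, against 0.237% of all 12663 genes tested, and 0 had an unadjusted p under 0.05. Their median log2 fold change was -0.026, beside -0.021 over all genes tested, and other scalings placed it on either side of 0. In all 6 the fluoxetine and PBS libraries overlapped, whereas the groups did not overlap for 41.6% of all genes tested. With 2 libraries against 2, the smallest p of an exact two-sided permutation test is 0.333, so the tests rest on the spread that limma pools over genes. The labels do not say whether the libraries came from separate cultures, so the p-values measure only the spread between libraries, which may be technical. In RNA of whole cultures, fewer cells expressing a gene and less RNA per cell cannot be told apart.

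**Figure D1:**
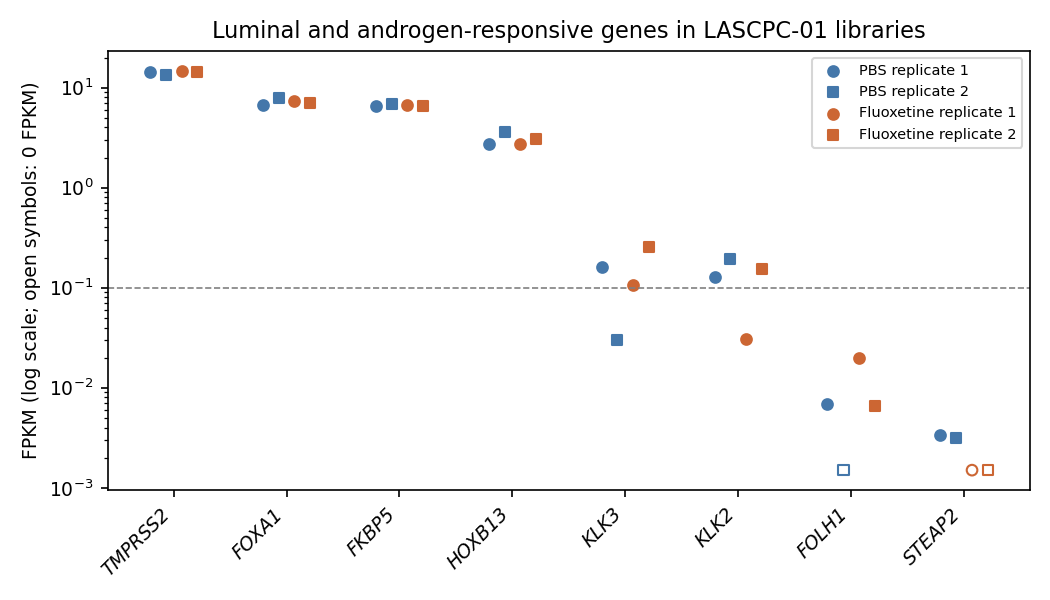
FPKM (log axis) of the 8 genes, ordered by mean, in the 2 PBS libraries (blue) and the 2 fluoxetine libraries (orange), with 0 FPKM drawn as open symbols at the foot and the filter of 0.1 FPKM as a dashed line. TMPRSS2, FOXA1, FKBP5 and HOXB13 lie between 2.72 and 14.8 FPKM in every library, and the other 4 genes at or below 0.256 FPKM.

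The cells expressed epithelial and neuroendocrine genes side by side. The simple keratins KRT8 and KRT18 and the adhesion protein EPCAM were each at 228 FPKM or more in every library. The other luminal epithelial markers listed were lower. CDH1 had between 77.9 and 91.3 FPKM, CD24 between 38.7 and 45.2 FPKM and the keratin KRT19 between 0.909 and 1.34 FPKM. The neural adhesion protein NCAM1 had between 44.3 and 52.0 FPKM. CHGA and SYP, granule and vesicle proteins used to diagnose neuroendocrine tumours, reached no more than 0.0886 and 0.629 FPKM. Of the 5 basal markers listed, TP63 and KRT5 were at 0 FPKM in PBS replicate 1 and in fluoxetine replicate 1 and at most 0.0514 FPKM elsewhere, and KRT15 and NGFR reached no more than 0.0611 FPKM. The fifth, DST, which encodes the cytoskeletal linker dystonin, had between 2.82 and 3.47 FPKM. None of the 6 luminal epithelial, 8 neuroendocrine or 1 basal marker tested had an adjusted p under 0.05, and the median log2 fold change of the neuroendocrine markers was -0.21, beside -0.021 over all genes. With the gene length trend removed it was -0.12, and rescaled to TPM, where 12 of these markers passed the filter, -0.35. Of 6 fibroblast, 5 immune and 4 endothelial markers, 3, 1 and 1 passed the filter, and their summed FPKM were 6.34 to 8.69, 2.76 to 4.02 and 0.117 to 0.218 over the 4 libraries.

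FOXA1, the pioneer factor that opens chromatin for the androgen receptor, lies on chromosome 14 of GRCh38 from 37589984 to 37596059 on the minus strand in the GENCODE 29 annotation. With PBS it had 6.73 and 7.96 FPKM, and with fluoxetine 7.41 and 6.98 FPKM, from 949, 1187, 1107 and 1043 fragments. Both fluoxetine values lay between the PBS values. On the log2(FPKM + 0.1) scale, on which all fold changes here are given, the PBS libraries differed by 0.24, whereas fluoxetine and PBS differed by a log2 fold change of only -0.025 (adjusted p = 0.964, standard error 0.11). Its 95% interval ran from -0.26 to 0.21, which corresponds to a fold between 0.837 and 1.15.

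HOXB13, the posterior homeobox factor that marks prostate identity, lies on chromosome 17 from 48724763 to 48729178 on the minus strand. It had 2.72 and 3.58 FPKM with PBS and 2.75 and 3.03 FPKM with fluoxetine. The PBS libraries again enclosed both fluoxetine libraries. The log2 fold change of -0.11 (adjusted p = 0.839, standard error 0.15) was smaller than the 0.38 by which the PBS libraries differed. Its 95% interval ran from -0.43 to 0.21. Among the 8 genes, HOXB13 had the log2 fold change farthest from 0 of those at 1 FPKM or more. Among 10579 genes of at least 1 FPKM, MBD6, NFIC and PRRC1 had the profile most like it over the 4 libraries, with root mean square differences of 0.0091, 0.016 and 0.022 in centred log2 values, and 51 genes were within 0.05.

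HOXB13 sits at the 5′ end of the HOXB cluster, apart from the other genes of the cluster, and several of these had higher FPKM. HOXB6 had between 19.0 and 20.8 FPKM, HOXB7 between 17.4 and 22.1 FPKM and HOXB4 between 14.6 and 16.7 FPKM. HOXB1, at the other end, was at 0 FPKM in 3 libraries and at 0.0141 FPKM in the fourth. Of the 10 HOXB genes, 9 were tested, and 0 had an adjusted p under 0.05. HOXB7 had a log2 fold change of 0.24 (adjusted p = 0.513), HOXB2 of -0.68 (adjusted p = 0.518), HOXB9 of -0.20 (adjusted p = 0.557) and HOXB3 of -0.18 (adjusted p = 0.707). The level of HOXB2 was low, between 0.408 and 0.947 FPKM, from 25 to 58 fragments in a library.

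TMPRSS2, a transmembrane serine protease whose promoter drives the ERG fusions of prostate adenocarcinoma, had the highest level of the 8 genes. It lies on chromosome 21 from 41464551 to 41531116 on the minus strand. Its levels were 14.3 and 13.5 FPKM with PBS and 14.8 and 14.2 FPKM with fluoxetine, from 1676, 1669, 1832 and 1764 fragments. PBS replicate 1 lay between the fluoxetine libraries. The mean over the libraries was higher than that of 73.1% of the listed genes. Fluoxetine against PBS gave a log2 fold change of 0.061 (adjusted p = 0.837, standard error 0.082), with a 95% interval from -0.12 to 0.24, or a fold between 0.921 and 1.18. The level of TMPRSS2 was close to that of its relative TMPRSS3, which had between 14.9 and 17.2 FPKM. A more distant serine protease of the cell surface, ST14 (matriptase), had between 242 and 255 FPKM.

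FKBP5, a co-chaperone of HSP90 that lowers the hormone affinity of steroid receptors, lies on chromosome 6 from 35573585 to 35728583 on the minus strand. It had 6.60 and 6.89 FPKM with PBS and 6.65 and 6.59 FPKM with fluoxetine. Relative to their level, these 4 values lay closer together than those of the other 7 genes, and they rested on 2300 to 2538 fragments in a library. The log2 fold change of -0.027 (adjusted p = 0.957) had a standard error of 0.096, with a 95% interval from -0.24 to 0.18. FKBP5 and FOXA1 overlapped in level over the libraries. HOXB13, next in order, was lower than both in every library, and TMPRSS2 was higher than both.

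**Figure D2:**
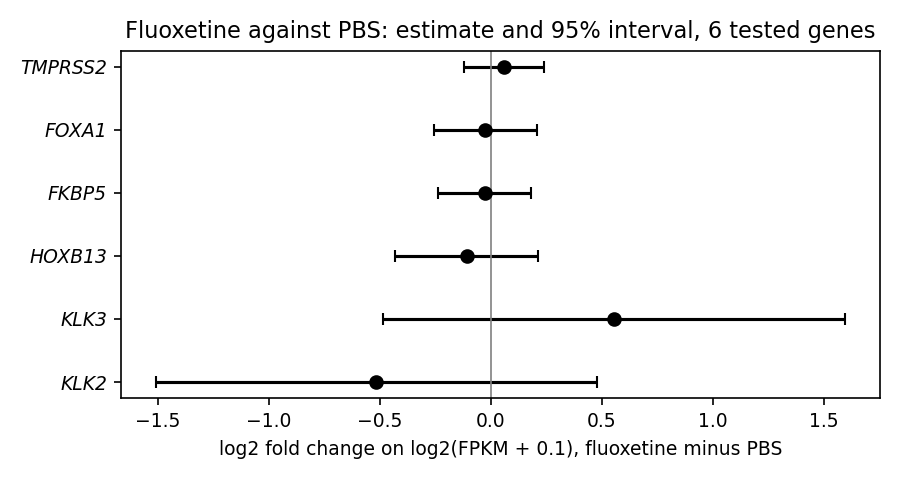
Log2 fold change, fluoxetine minus PBS, on the log2(FPKM + 0.1) scale for the 6 tested genes, with the 95% interval from limma (2 libraries in each group) as bars. All 6 intervals include 0, and they are widest for KLK3 (-0.48 to 1.60) and KLK2 (-1.51 to 0.48), which had fewest fragments.

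KLK3 and KLK2 are neighbours on the plus strand of chromosome 19 of GRCh38. In GENCODE 29, KLK3 lies from 50854915 to 50860764 and KLK2 from 50861568 to 50880567. Their proximal promoters are shown because they carry the best known androgen-responsive sequences among these genes and because both genes were almost silent in these cells. The RefSeq promoters on GRCh38.p14 run from 250 bases before the start of the gene in RefSeq to 50 after it. They lie at chr19:50854665-50854964 for KLK3 and at chr19:50873189-50873488 for KLK2, both on the plus strand. For KLK2 this window lies inside the GENCODE 29 span given above, because RefSeq and GENCODE 29 begin the gene at different bases. Capitals mark matches to GAACA followed after 4 bases by GT, any base and CT, a loose form of the androgen response element, and to TATAAA, each sought on both strands.
KLK3: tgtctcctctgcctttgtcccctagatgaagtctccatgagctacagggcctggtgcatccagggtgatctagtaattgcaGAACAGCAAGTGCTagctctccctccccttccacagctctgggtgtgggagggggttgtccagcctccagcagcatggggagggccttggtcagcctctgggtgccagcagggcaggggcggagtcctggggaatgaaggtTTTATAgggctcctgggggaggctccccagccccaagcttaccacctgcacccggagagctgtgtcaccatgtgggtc
KLK2: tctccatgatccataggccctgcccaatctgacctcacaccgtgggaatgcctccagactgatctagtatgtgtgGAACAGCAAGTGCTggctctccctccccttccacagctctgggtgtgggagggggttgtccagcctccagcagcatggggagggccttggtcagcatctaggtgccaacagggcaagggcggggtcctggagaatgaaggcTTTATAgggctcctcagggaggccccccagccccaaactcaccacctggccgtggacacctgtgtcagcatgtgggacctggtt

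Both promoters held the same 14 bases at the first match, which begins 169 bases before the RefSeq start of KLK3 and 175 bases before that of KLK2. The TATA match begins 28 and 34 bases before the RefSeq start. The promoters were identical at 85.5% of 290 aligned bases. The first motif occurred in 0.248% of the 35116 promoters of the table and TATAAA in 11.5%. Of the 8 genes, 5 had a promoter in the table, namely FKBP5, FOXA1, KLK2, KLK3 and STEAP2. The first motif was found in KLK2 and KLK3, and TATAAA in these and in STEAP2. A shorter motif also sought, AGAACA, occurred in 14.8% of the promoters, and among these genes in FKBP5 and KLK3. These motifs were chosen after the values were seen, and a match is a description of the sequence.

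KLK3 had 0.160 and 0.0302 FPKM with PBS and 0.106 and 0.256 FPKM with fluoxetine. These values rest on 10, 2, 7 and 17 fragments. PBS replicate 1 lay between the fluoxetine libraries, so the groups overlapped. The log2 fold change was 0.56 (adjusted p = 0.728, standard error 0.48). It was 0.059 without PBS replicate 2, 1.06 without PBS replicate 1 and 0.95 without fluoxetine replicate 1. Counted over the groups, 12 and 24 fragments gave a ratio of 1.94 for fluoxetine to PBS, with an exact 95% interval from 0.934 to 4.26 that covers counting error only.

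KLK2 had 0.129 and 0.193 FPKM with PBS and 0.0305 and 0.152 FPKM with fluoxetine, from 12, 19, 3 and 15 fragments. Fluoxetine replicate 2 lay between the PBS libraries. Fluoxetine against PBS gave a log2 fold change of -0.51 (adjusted p = 0.737, standard error 0.46). It was -0.039 without fluoxetine replicate 1 and -0.99 without fluoxetine replicate 2. Without PBS replicate 1 it was -0.69, and without PBS replicate 2 -0.34. The 31 fragments with PBS and 18 with fluoxetine gave a ratio of 0.564, with an exact 95% counting interval from 0.297 to 1.04. The point estimates of KLK2 and KLK3 thus lay on opposite sides of 0, with neither passing the test. The levels of KLK2 and KLK3 overlapped over the libraries, and no 150-base stretch of a GENCODE 29 transcript of either gene occurred in a transcript of another gene, so reads of full length could be told apart.

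The low level of KLK2 and KLK3 did not extend over the whole kallikrein cluster, a run of secreted serine protease genes on chromosome 19. Of the 12 kallikrein genes analysed here, 6 were at 2.75 FPKM or more in every library and 6 were at 0.256 FPKM or less in every library. In chromosomal order, KLK1 and KLK15 came first, with 2.75 to 4.67 and 5.07 to 5.36 FPKM. The next 6 genes analysed, KLK3, KLK2, KLK4, KLK6, KLK7 and KLK10, were the low ones. KLK4, another androgen-responsive kallikrein, had 0.0401 and 0.247 FPKM with PBS and 0 and 0.0189 FPKM with fluoxetine. These values rest on 2, 13, 0 and 1 fragments, most of them from PBS replicate 2. KLK4 was below the filter and was not tested. The run from KLK11 to KLK14 at the far end was high. KLK12 had between 80.0 and 96.9 FPKM and KLK13, which serves in squamous epithelia, between 81.5 and 90.2 FPKM. KLK11 had between 45.6 and 51.1 FPKM and KLK14 between 44.0 and 53.1 FPKM.

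**Figure D3:**
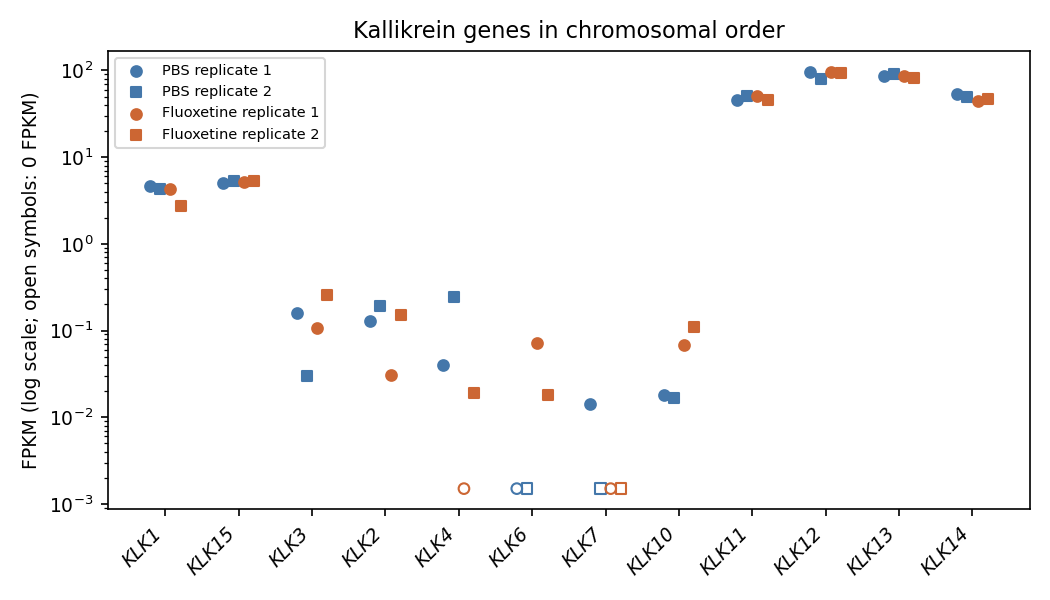
FPKM (log axis) of the 12 kallikrein genes analysed, in their order along chromosome 19, in the 2 PBS libraries (blue) and the 2 fluoxetine libraries (orange), with 0 FPKM as open symbols at the foot. The 6 genes from KLK3 to KLK10 lie at or below 0.256 FPKM, between KLK1 and KLK15 at 2.75 to 5.36 FPKM and the run from KLK11 to KLK14 at 44.0 to 96.9 FPKM.

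Of the 12 kallikrein genes, 8 were tested, KLK2 and KLK3 among them, and 0 had an adjusted p under 0.05. The smallest p belonged to KLK14, which had 53.1 and 49.2 FPKM with PBS and 44.0 and 47.3 FPKM with fluoxetine, giving a log2 fold change of -0.16 (adjusted p = 0.579, standard error 0.076). For KLK14 the fluoxetine values were lower than both PBS values, as for 24.8% of all genes tested. KLK1, tissue kallikrein, had a log2 fold change of -0.36 (adjusted p = 0.582) and KLK12 one of 0.13 (adjusted p = 0.652), and the groups overlapped for both. KLK5, KLK8, KLK9 and KLKP1, which lie between KLK2 and KLK10, were not among the listed genes and so were not analysed here.

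FOLH1 lies on chromosome 11 from 49146635 to 49208670 on the minus strand. It had 1 and 0 fragments in the PBS libraries and 3 and 1 in the fluoxetine libraries, or at most 0.0196 FPKM. The upper limit set for a count of 0, 3 fragments, is 0.0197 FPKM in PBS replicate 2, so no library stood above it. The exact two-sided 95% limit there was wider, at 0.0242 FPKM. The ratio of 4 fragments to 1 was 3.88, with an exact 95% counting interval from 0.384 to 191, and FOLH1 was not tested. FOLH1B, a copy of FOLH1 that the annotation gives as a transcribed pseudogene, had 12 fragments (0.135 FPKM) in fluoxetine replicate 1 and 0 in the other 3 libraries. Of the 150-base stretches of FOLH1 transcripts, 6.97% occurred in FOLH1B, and reads of such stretches cannot be assigned to either copy. The intervals and limits given for fragments cover counting error only.

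STEAP2 lies on chromosome 7 from 90167590 to 90238137 on the plus strand and had the lowest level of the 8 genes. It had 1 fragment in each PBS library and 0 in each fluoxetine library. A count of 0 allows up to 0.00952 FPKM in either fluoxetine library, above the 0.00336 and 0.00318 FPKM of the PBS libraries, so a difference was not detectable at this depth. Among its relatives, STEAP1 had between 0.0998 and 0.330 FPKM (log2 fold change 0.50, adjusted p = 0.695), and STEAP3, a ferrireductase of iron uptake, had between 35.7 and 39.4 FPKM in every library.

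Other androgen-responsive genes of the prostate were expressed over a wide range. Of 50 symbols in this list, 43 were listed and 37 passed the filter. AZGP1 and FAM3B, named for their level after the values were seen, had mean levels of 130.5 and 71.7 FPKM. SLC45A3 (prostein) had 10.2 and 9.26 FPKM with PBS and 8.55 and 9.52 FPKM with fluoxetine. ACP3, prostatic acid phosphatase, stayed between 0.467 and 0.671 FPKM. In 4 of the 37 tested genes both fluoxetine values were higher than the PBS values, and in 12 both were lower, beside 16.7% and 24.8% of all genes tested. The 37 had a median log2 fold change of -0.048, with 14 above 0 and 23 below, beside 5507 and 7156 of all genes tested.

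Of these 37 genes, 1 fell and 0 rose at an adjusted p under 0.05, beside 0.213% of all genes lower and 0.0237% higher. The gene that fell was NDRG1, which answers to androgen and also to low oxygen. It had 5.35 and 5.81 FPKM with PBS and 1.66 and 2.68 FPKM with fluoxetine, giving a log2 fold change of -1.36 (adjusted p = 0.00730, standard error 0.18). Over 16 alternative settings its adjusted p ranged from 2.3e-08 to 0.665, and it was under 0.05 in 12 of them. It was 0.171 without PBS replicate 1, 0.268 without PBS replicate 2, 0.398 with no trend in the variance and 0.665 with low genes kept, with log2 fold changes between -1.42 and -1.30. The next smallest p-values were those of RAB3B (log2 fold change -0.31, adjusted p = 0.488), PDIA5 (0.24, adjusted p = 0.520) and ZBTB10 (-0.41, adjusted p = 0.532).

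Cofactors of the androgen receptor and luminal transcription factors included 31 tested genes of 34, and 0 passed the test. Their median log2 fold change was -0.15, with 23 of 31 below 0. The fluoxetine values were both higher in 2 genes and both lower in 10, beside 16.7% and 24.8% of all genes tested. With the gene length trend removed from each library, the median was -0.066, and 22 of 31 were below 0. Of all genes tested, 6260 were then above 0 and 6403 below. Across genes, the deviation of fluoxetine replicate 1 from the mean of the libraries correlated with log2 gene length at -0.285. For the other libraries this correlation was between 0.046 and 0.189, highest in PBS replicate 2. SPOP, a ubiquitin ligase adaptor mutated in prostate cancer, had 11.0 FPKM in both PBS libraries and 13.0 and 12.5 FPKM with fluoxetine, giving a log2 fold change of 0.21 (adjusted p = 0.536). KLF5 (log2 fold change -0.33, adjusted p = 0.538), HOXA13 (-0.32, adjusted p = 0.555) and HOXB9 followed. GATA2, a partner of the androgen receptor, had between 11.9 and 14.2 FPKM.

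**Figure D4:**
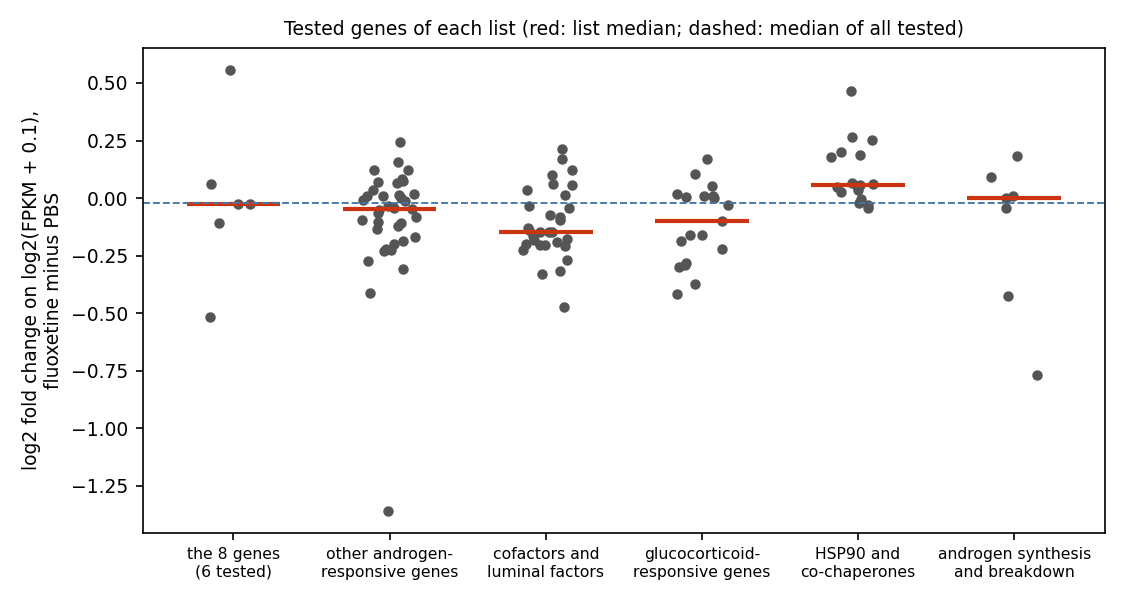
Log2 fold change, fluoxetine minus PBS, on the log2(FPKM + 0.1) scale for each tested gene (points) of the 8 genes and of 5 lists, with the list median in red and the median of all 12663 tested genes, -0.021, as a dashed line. The list medians lie between -0.15 and 0.057, and the point at -1.36 is NDRG1.

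Because FKBP5 answers to glucocorticoids too, the glucocorticoid receptor and its responsive genes were set beside it. Of 21 genes, 19 were tested and 0 passed, and their median log2 fold change was -0.0998. NR3C1, which encodes the receptor, had 1.48 and 1.46 FPKM with PBS and 1.16 and 1.19 FPKM with fluoxetine, giving a log2 fold change of -0.30 (adjusted p = 0.614). TSC22D3, an anti-inflammatory target also called GILZ, had 3.15 and 3.83 FPKM with PBS and 2.70 and 2.62 FPKM with fluoxetine (log2 fold change -0.37, adjusted p = 0.515). KLF9 had a log2 fold change of -0.42 (adjusted p = 0.514), CEBPD of -0.29 (adjusted p = 0.532) and TXNIP of -0.18 (adjusted p = 0.535). The fluoxetine values were both higher than the PBS values in 1 of the 19 genes and both lower in 8. Over all genes tested these shares were 16.7% and 24.8%.

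HSP90 and the co-chaperones that hold steroid receptors were all expressed, and 0 of 17 passed the test. HSP90AA1 had between 816 and 872 FPKM and HSP90AB1 between 1247 and 1345 FPKM. Their median log2 fold change was 0.057, and after quantile normalization it was -0.011. The fluoxetine values were both higher in 8 of the 17 genes and both lower in 1, beside 16.7% and 24.8% of all genes tested. DNAJA1, a co-chaperone of the HSP40 family, had 99.0 and 97.1 FPKM with PBS and 123 and 113 FPKM with fluoxetine (log2 fold change 0.26, adjusted p = 0.329). HSPA1B (0.25, adjusted p = 0.442), HSPA1A (0.47, adjusted p = 0.511) and DNAJB1 (0.18, adjusted p = 0.552) followed. HSPA1A and HSPA1B are near-identical copies, so the split of reads between them is uncertain. FKBP4, the co-chaperone that acts opposite to FKBP5 on steroid receptors, had between 88.0 and 99.3 FPKM and a log2 fold change of 0.052 (adjusted p = 0.857).

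Among the relatives of the 8 genes, 16 of 30 were tested and 0 passed. FKBP9, an FK506-binding protein of the endoplasmic reticulum, came closest, with 12.1 and 10.8 FPKM under PBS and 7.92 and 8.17 FPKM under fluoxetine (log2 fold change -0.50, adjusted p = 0.0587). Its adjusted p was under 0.05 in 5 of 16 alternative settings, among them 0.0201 with the replicate number as a block and 0.000677 with limma voom on the recovered fragments. In the other 11 it ranged up to 0.650, and with 1 library left out it was between 0.197 and 0.355.

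Enzymes that make or break down androgens were few. Of 23 genes, 13 were listed and 7 were tested, and 0 passed. SRD5A1, which makes dihydrotestosterone, had between 9.94 and 11.0 FPKM, and SRD5A3 between 14.2 and 15.6 FPKM. SRD5A2 had at most 0.00500 FPKM. STS, the steroid sulfatase, had 1.64 and 1.73 FPKM with PBS and 1.27 and 1.19 FPKM with fluoxetine, giving a log2 fold change of -0.42 (adjusted p = 0.535). HSD17B10 had a log2 fold change of 0.18 (adjusted p = 0.543), HSD17B6 of -0.77 (adjusted p = 0.586) and SRD5A3 of 0.090 (adjusted p = 0.737). The level of HSD17B6 was low, with 0.533 and 0.229 FPKM under PBS and 0.168 FPKM in each fluoxetine library. These values rest on 33, 15, 11 and 11 fragments.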

How the data were processed

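RNA of LASCPC-01 cells was sequenced as 150 bp paired-end reads, and the authors deposited 1 FPKM value per gene and library. The submitters' processing notes name fastp, HISAT2, HTSeq and GRCh38 with no versions. The annotation is not given in the sources used here, and the labels and the paper name different library kits. Samples were grouped by their treatment labels. The 8 genes, the gene lists and the tests were chosen with earlier results of these data known, and the androgen receptor gene itself was not analysed here. Some list and marker genes are not reported here by name.

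Fragments were recovered from the FPKM as whole numbers. Depth ratios came from genes with equal fragments, the depth from the GENCODE 29 exon lengths of 37 genes, and each gene took the smallest whole length that made the fragments of every library whole within 2e-05 plus 2e-09 per fragment. This solved all 16080 genes above 0. True fragments could be multiples of these numbers. Since the deposited values are FPKM, a count model was not the main test, and limma 3.58.1 in R 4.3.3 (eBayes with a variance trend) was run on log2(FPKM + 0.1) for the 12663 genes that averaged 0.1 FPKM or more, and p-values were adjusted over all of them (Benjamini-Hochberg). The pseudocount understates changes of low genes. Exact intervals for fragments are Poisson or binomial (scipy 1.17.1). Scripts were tested on simulated data. Named genes were the 8, any list gene under 0.05, up to 4 tested genes of each list with the smallest p, the highest relatives and the markers. Sequences came from RefSeq (GRCh38.p14) and transcripts from GENCODE 29. Alternatives were other pseudocounts, filters, scalings, variance models, a replicate block, voom, removal of the length trend and each library left out.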

Additional observations from a re-analysis of the deposited data

How the results depend on the processing

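None of the 8 genes had an adjusted p under 0.05 in any alternative in which it was tested. The median log2 fold change of those tested ranged from -0.10 to 0.039. It moved by less than 0.115, the within-group standard deviation of the median log2 level of these genes in a library. That yardstick is wide beside the main estimate of -0.026, so it does not show that the sign is stable. The number of genes changed, 30 in all, was 0 without the filter on low values (1175 with an unadjusted p under 0.05), 0 without the variance trend (933 such genes), 16 after quantile normalization, 64 with the replicate number as a block and 56 with limma voom on the recovered fragments, and between 3 and 17 with 1 library left out, where a group of 1 is assumed to vary like the other. The cause was not tested. It was 3 without PBS replicate 2, 8 without PBS replicate 1, 17 without fluoxetine replicate 1 and 12 without fluoxetine replicate 2. Under the replicate block 0 of the 6 tested genes passed. The pairing was checked by correlating deviations from the group mean between libraries of equal number. The correlation was 0.035 across all genes tested and 0.101 across those with a mean of at least 10 FPKM. With 2 pairs, libraries of equal number share only that number.

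The log2 fold changes near 0 changed sign. That of FKBP5 was 0.013 after quantile normalization and 0.084 with the length trend removed. That of FOXA1 was 0.013 after quantile normalization, 0.0016 after median centring and 0.0025 with the length trend removed. With 1 library left out, FKBP5 ranged from -0.057 to 0.0037, HOXB13 from -0.30 to 0.082 and FOXA1 from -0.14 to 0.095. HOXB13 was above 0 without PBS replicate 2. The median of the 6 genes was 0.013, 0.00060 and 0.038 under these 3 scalings. KLK3 could not be tested without fluoxetine replicate 2, where its mean was below the filter. Depth limits KLK2, KLK3, FOLH1 and STEAP2, which had at most 19 fragments in a library.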
